A study of Mus musculus with 9 samples.

Results

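The Tcl1 family comprises Tcl1 and the genes whose symbols begin with Tcl1b. The members were set by symbol, as Tcl1 and every gene whose symbol begins with Tcl1b, but the family was chosen with earlier results of these data known. A RefSeq gene table listed 6 such genes, and 4 of them, Tcl1, Tcl1b1, Tcl1b3 and Tcl1b4, had a probe set named for them in the array annotation, out of 18193 genes with a probe set of a single symbol. Each of the 4 was represented by 1 probe set, 1422458_at for Tcl1, 1448981_x_at for Tcl1b1, 1420570_x_at for Tcl1b3 and 1420423_at for Tcl1b4. No probe set shared between members by name was found, and the array signal of Tcl1b2 and Tcl1b5 was not analysed here. By the manufacturer's naming, the suffix _x_at marks a set with probes that can also match other transcripts. The signals of Tcl1b1 and Tcl1b3 may therefore include RNA of other copies and are uncertain as measures of a single gene.

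The signal was that of polysome-bound mRNA, the fraction of mRNA held on ribosomes, in mouse oocytes on 9 Affymetrix Mouse Genome 430 2.0 arrays. All mice received PMSG, which stimulates follicle growth, and 48 h later hCG, which triggers maturation, for 0 h (germinal vesicle stage, GV), 4 h (first meiotic metaphase, MI) or 14 h (second meiotic metaphase, MII). Each stage had 3 arrays, labelled as biological replicates from independent sample sets. The sources used here do not give the strain, age or number of the mice. The MI samples carry the short name pGVB, which the labels do not explain. The labels do not tie the replicates to separate animals. The p-values thus reflect spread among these 9 samples, part of which may be technical, and 3 arrays per stage limit the precision.

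As background, TCL1 proteins are small beta-barrel proteins without enzyme activity. They bind the pleckstrin homology domain of Akt kinases and promote Akt activation at the membrane. Human TCL1A is best known as an oncogene of T-cell and B-cell leukaemias. In the mouse, Tcl1 and its Tcl1b copies are transcribed in oocytes and early embryos, and maternal Tcl1 contributes to normal early cleavage. During maturation the oocyte is transcriptionally silent, and recruitment of stored mRNA to polysomes, or release from them, sets which proteins are made.

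The family forms a cluster on chromosome 12 of the RefSeq annotation (build GRCm38.p6), in the order Tcl1b2, Tcl1b1, Tcl1b5, Tcl1b3, Tcl1b4 and Tcl1. The 5 Tcl1b genes lie on the plus strand and Tcl1 on the minus strand. The 120 bases before each annotated start are printed here to describe the cluster, and any bearing of them on the array signal was not tested. They are at chr12:105146899-105147018, chr12:105159584-105159703, chr12:105176224-105176343, chr12:105190925-105191044, chr12:105202275-105202394 and chr12:105222738-105222857, in the order listed. All are printed 5′ to 3′ on the strand of the gene, with matches to the E-box (CANNTG) in capitals.
Tcl1b2: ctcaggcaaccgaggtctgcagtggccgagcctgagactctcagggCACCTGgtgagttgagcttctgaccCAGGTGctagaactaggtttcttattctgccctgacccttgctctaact
Tcl1b1: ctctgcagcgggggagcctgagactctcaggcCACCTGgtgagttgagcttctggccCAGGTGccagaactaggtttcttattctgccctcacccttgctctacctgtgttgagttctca
Tcl1b5: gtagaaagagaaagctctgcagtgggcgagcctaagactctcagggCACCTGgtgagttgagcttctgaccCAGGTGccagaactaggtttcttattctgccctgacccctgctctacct
Tcl1b3: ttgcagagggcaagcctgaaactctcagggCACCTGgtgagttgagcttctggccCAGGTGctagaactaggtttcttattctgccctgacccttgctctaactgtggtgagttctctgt
Tcl1b4: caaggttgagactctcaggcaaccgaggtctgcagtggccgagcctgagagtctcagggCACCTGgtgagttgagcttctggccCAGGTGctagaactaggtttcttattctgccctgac
Tcl1: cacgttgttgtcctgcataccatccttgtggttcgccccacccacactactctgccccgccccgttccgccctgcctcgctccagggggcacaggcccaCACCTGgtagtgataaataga

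The promoter search covered 250 bases before to 50 after each start, on both strands, and all 6 genes matched an entry. Between the Tcl1b genes, local alignments of 156 to 287 bases were 89.4% to 98.6% identical over 10 pairs. Against Tcl1, the 5 Tcl1b windows aligned over 18 to 27 bases only. E-boxes were present in 6 of 6 windows, with 1 to 3 matches each, but 72.3% of the 32851 windows of the same length also held one. The form CACCTG lay at -88 in Tcl1b1, -74 in Tcl1b2, -90 in Tcl1b3, -61 in Tcl1b4, -74 in Tcl1b5 and -21 in Tcl1, counted from the start to the first base of the match. Its extension CACCTGGT was among the longest stretches held by all 6 windows, a search made after the sequences had been seen, and 1.03% of all windows held it on either strand. Each Tcl1b window also held the form CAGGTG downstream of it. The GC box GGGCGG matched only the Tcl1 window, with 2 matches at -64 and -54 on the opposite strand, against 35.7% of all windows. The element TAATTG or TAATTA, bound by the oocyte factor Nobox, matched 0 of 6 windows, against 12.4% of all. The letters TATAAA matched 0 of 6, against 13.6%. These matches describe letters in a window, not bound sites.

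**Figure D1:**
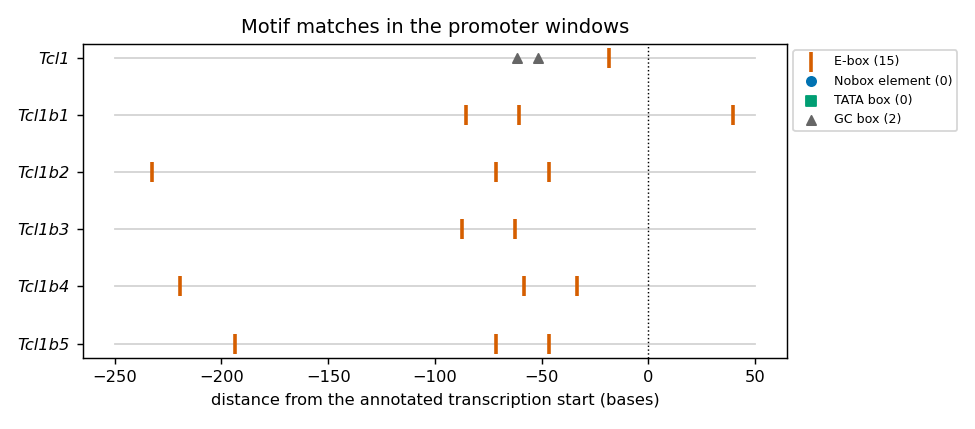
Positions of motif matches in the 6 Tcl1 family promoter windows, with the distance from the annotated start in bases on the x axis and 1 line per gene. E-box matches occur in all 6 windows, and GC box matches in that of Tcl1 only.

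Oocyte markers were measured on every array. All 11 oocyte markers, among them the zona pellucida genes Zp1 to Zp3 and the growth factors Gdf9 and Bmp15, were measured, and 0 of 11 were below an intensity of 16 on all arrays. Their summed intensity was 53814 to 57318 at GV, 46362 to 49615 at MI and 26857 to 34121 at MII, so it was lower at MII while the Tcl1 family was higher. Single markers differed, since Dazl was 823 to 908 at GV and 1735 to 2127 at MII, and Oosp1 was 3332 to 4545 at GV and 8072 to 9069 at MII, both higher on every MII array. Of 14 granulosa, cumulus and theca markers, 12 were measured, and 2 of 12 lay below 16 on all 9 arrays, and none was at 0. Their sum was 815 to 920 at GV, 872 to 1191 at MI and 277 to 596 at MII. Single genes weighed heavily in it, since Cyp11a1 gave 782, 680 and 130 on GV 1 to 3 and 394, 19.5 and 75.3 on MII 1 to 3. Star gave 403 on GV 3. The median over the 12 markers was 9.8 to 15.3 at GV and 12.1 to 13.2 at MII, so the lower sum at MII does not describe these markers in general. MI 3 stood apart, with a median over these 12 markers of 57.3 against 9.8 to 15.3 on the other 8 arrays. Of 13 lymphoid and blood markers, 10 were measured, since Tcl1 is also a lymphocyte gene. The B-cell markers Cd79a and Cd79b reached at most 15.5 and 28.9, whereas Ms4a1 ranged from 223 to 4617, with its highest value on MII 1. Without Ms4a1 the blood markers summed to 85.8 to 113 at GV, 132 to 207 at MI and 74.1 to 287 at MII, and the part of the somatic and blood markers in the results was not tested. Array medians lay between 12.4 and 13.2, near background, and all 4 family probe sets stood well above them on every array.

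From GV to MII, the polysome-bound signal of all 4 measured Tcl1 family genes rose, by 2.88-fold for Tcl1, 3.24-fold for Tcl1b1, 7.30-fold for Tcl1b3 and 5.67-fold for Tcl1b4. The limma model was fitted on log2(intensity + 16) over 45037 probe sets, with calls made where the Benjamini-Hochberg adjusted p was under 0.05. Of all probe sets, 3.75% rose from GV to MII by this rule and 5.23% fell. The median log2 change was 2.10 over the family and 0.01 over all probe sets. Folds are on the log2(intensity + 16) scale. In these bulk samples, fewer cells of a type and less RNA per cell cannot be told apart.

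Tcl1, the founding member and Akt cofactor, had intensities of 3289, 2114 and 4569 on GV arrays 1 to 3, 4706, 4379 and 3058 on the MI arrays, and 8107, 9549 and 9850 on the MII arrays. The MII arrays lay above all others, and the GV and MI ranges overlapped. The mean was 3324 ± 1228 (SD, n = 3) at GV, 4048 ± 873 at MI and 9169 ± 931 at MII. The log2 change from GV to MII was 1.52 ± 0.30 (SE; 95% interval 0.83 to 2.22), with a limma adjusted p of 0.0195. This call was lost without GV 1 (adjusted p = 0.0536), without MII 2 (0.0600) and without MII 3 (0.0675), and kept when any of the other 6 arrays was left out.

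Tcl1b1, a Tcl1-related copy on the opposite strand, gave 2907, 1682 and 2180 at GV, 3307, 3880 and 3718 at MI, and 6887, 7680 and 6968 at MII. The stages formed 3 separate ranges in the order of maturation. Its mean was 2256 ± 616 (SD, n = 3), 3635 ± 295 and 7178 ± 437 at the respective stages. The log2 change from GV to MII was 1.70 ± 0.21 (SE; 95% interval 1.21 to 2.19; limma adjusted p = 0.00334).

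Tcl1b3, which lies between Tcl1b5 and Tcl1b4, gave 1071, 1058 and 668 at GV, 2073, 2015 and 3503 at MI, and 5994, 7799 and 6594 at MII. Its ranges also did not overlap, and MI 3 was the highest of the MI arrays. The mean was 932 ± 229 (SD, n = 3), 2530 ± 843 and 6796 ± 919. The log2 change from GV to MII was 2.87 ± 0.28 (SE; 95% interval 2.21 to 3.53; limma adjusted p = 0.00173). It ranked 338 from the top among 45037 probe sets, against 651 for Tcl1b4, 2007 for Tcl1b1 and 2495 for Tcl1.

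Tcl1b4, the copy next to Tcl1, gave 1065, 709 and 693 at GV, 1254, 1509 and 1580 at MI, and 4539, 4879 and 4521 at MII. The 3 MII arrays stood far above the rest and close to each other. The mean was 822 ± 210 (SD, n = 3), 1447 ± 172 and 4646 ± 202. The log2 change from GV to MII was 2.50 ± 0.20 (SE; 95% interval 2.03 to 2.97), with a limma adjusted p of 0.000962. The F test over the 3 stages passed for 4 of 4 members, as for 7.03% of all probe sets.

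**Figure D2:**
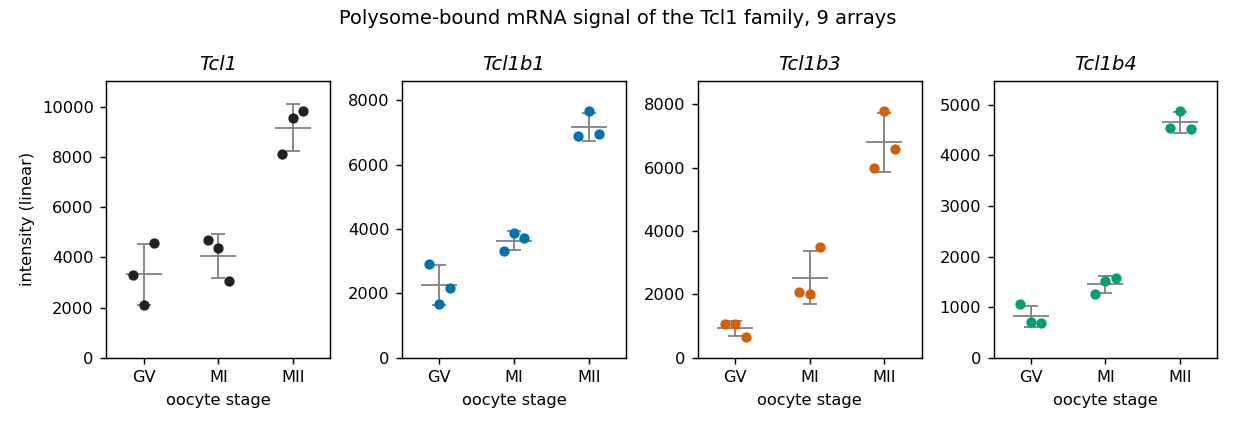
Intensity on a linear scale (y axis, from 0, with its own range in each panel) of the 4 Tcl1 family probe sets on each of the 9 arrays, by stage. Points are arrays and grey bars are the mean ± SD of 3 arrays. In each panel the MII arrays lie above the GV and MI arrays, and the panels are not to be compared in level because each probe set has its own response.

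For the step from GV to MI, limma called 0 of 4 members, as it called 0.0% of all probe sets in either direction, although 6.19% had an unadjusted p under 0.05. The MI arrays lay above the GV arrays without overlap for Tcl1b1, Tcl1b3 and Tcl1b4, a pattern that 5.98% of all probe sets showed. The log2 change was 1.41 for Tcl1b3 (95% interval 0.75 to 2.07; limma adjusted p = 0.322, unadjusted 0.0012). For Tcl1b4 it was 0.83 (0.36 to 1.29; limma adjusted p = 0.442) and for Tcl1b1 0.72 (0.23 to 1.21; limma adjusted p = 0.597). For Tcl1 it was 0.33, with an interval from -0.37 to 1.03 that includes 0 (limma adjusted p = 0.956). Without MI 3, the array with the high somatic markers, the Tcl1b3 change was 1.15 and that of Tcl1 0.52. The Tcl1 change was 0.04 without GV 2, 0.59 without GV 3 and 0.21 without MI 1.

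From MI to MII, 3 of the 4 members rose, against 1.57% of all probe sets, while 3.85% of all fell. Tcl1b4 rose by 1.68 ± 0.20 on the log2 scale (SE; 95% interval 1.21 to 2.15; 3.20-fold; limma adjusted p = 0.00468). Tcl1b3 rose by 1.46 ± 0.28 (0.80 to 2.12; 2.75-fold; limma adjusted p = 0.0270) and Tcl1b1 by 0.98 ± 0.21 (0.49 to 1.47; 1.97-fold; limma adjusted p = 0.0393). The change of Tcl1 was 1.20 ± 0.30 (0.50 to 1.89; 2.29-fold) and did not pass (limma adjusted p = 0.0672). All 4 had their MII arrays above their MI arrays without overlap, as 10.5% of probe sets did, and from GV to MII all 4 did so as well, against 12.7%.

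With a pseudocount of 1 all 3 calls of this second step were lost (limma adjusted p = 0.0668 for Tcl1b4, 0.135 for Tcl1b3 and 0.302 for Tcl1b1). Leaving out the lowest 40% of probe sets ended the Tcl1b1 call (0.0937), and fitting these stages alone ended that of Tcl1b3 (0.0520). Tcl1 passed without GV 2 (0.0399) or GV 3 (0.0475). The Tcl1b4 call held when any of the 9 arrays was left out. The Tcl1b1 call held only without GV 1 or GV 2, and its adjusted p with another array left out was 0.0636 (GV 3), 0.117 (MI 1), 0.0963 (MI 2), 0.0827 (MI 3), 0.0923 (MII 1), 0.110 (MII 2) or 0.103 (MII 3). The Tcl1b3 call was lost without MI 1 (adjusted p = 0.0863), MI 2 (0.0938), MII 1 (0.0576), MII 2 (0.0813) or MII 3 (0.0798). The number of members that rose was thus 1 when MI 1, MI 2, MII 1, MII 2 or MII 3 was left out, and 2 when MI 3 was.

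The MI arrays enter both steps, so the steps are not independent. A contrast of the second step minus the first gave 0.87 for Tcl1 (limma adjusted p = 0.752), 0.85 for Tcl1b4 (0.524), 0.26 for Tcl1b1 (0.909) and 0.05 for Tcl1b3 (0.989). None of the 4 passed, as against 0.00888% of all probe sets that passed upward and 0.202% downward, and Tcl1b4 alone had an unadjusted limma p under 0.05 (0.0417), as 8.89% of all probe sets had. The size of the rise was therefore not shown to differ between the steps for any member.

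**Figure D3:**
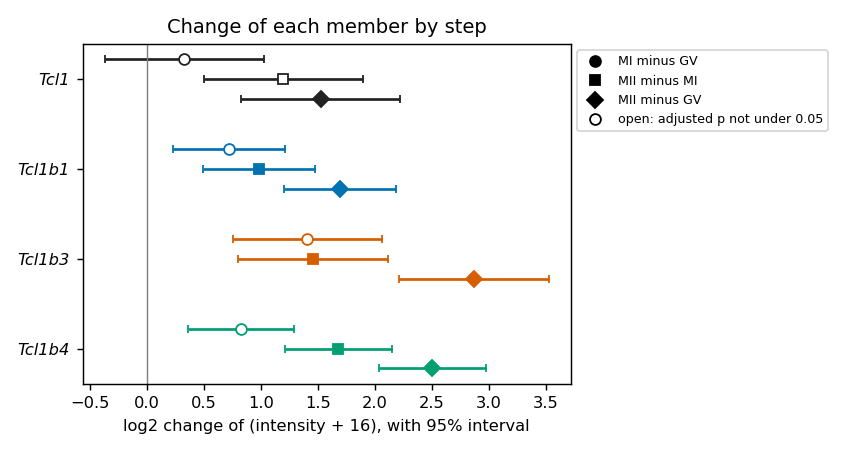
Fitted log2 change of each Tcl1 family probe set (y axis) from GV to MI, MI to MII and GV to MII, with 95% confidence intervals from limma. All intervals lie above 0 except that of Tcl1 from GV to MI, which reaches from -0.37 to 1.03.

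The ratio of each Tcl1b signal to Tcl1 within an array does not depend on array scaling. From GV to MII, the log2 ratio of Tcl1b3 to Tcl1 changed by 1.34, and that of Tcl1b4 to Tcl1 by 0.98, in both cases without overlap between the stages. That of Tcl1b1 to Tcl1 changed by 0.17, with overlap. The exact two-sided permutation p was 0.1 for Tcl1b3, 0.1 for Tcl1b4 and 0.8 for Tcl1b1, and 0.1 is the smallest that 3 against 3 arrays allow. This test could therefore not place any of these ratios past 0.05. GV 3 had the highest Tcl1 and the lowest Tcl1b3 and Tcl1b4 of the GV arrays. Without it the changes were 0.86 for Tcl1b3, 0.61 for Tcl1b4 and -0.10 for Tcl1b1.

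The ratios varied less between MII arrays than earlier. Their SD over 3 arrays was 0.14 for Tcl1b1, 0.14 for Tcl1b3 and 0.14 for Tcl1b4 at MII, against 0.47, 0.89 and 0.64 at GV and 0.40, 0.77 and 0.48 at MI, and this difference in spread was not tested. From GV to MI the changes were 0.39, 1.08 and 0.50 for Tcl1b1, Tcl1b3 and Tcl1b4, with exact permutation p of 0.4, 0.3 and 0.4. From MI to MII they were -0.22, 0.26 and 0.48, with exact permutation p of 0.5, 0.6 and 0.3. All of these overlapped between stages. Single arrays moved them: from MI to MII the change of Tcl1b3 was 0.02 without MI 1, 0.06 without MI 2 and 0.71 without MI 3, that of Tcl1b1 ranged from -0.40 (without MI 1) to -0.01 (without MI 3), and that of Tcl1b4 was 0.26 without MI 1 and 0.74 without MI 3. From GV to MI, the lowest values came without GV 3, at 0.12 for Tcl1b1, 0.60 for Tcl1b3 and 0.13 for Tcl1b4, and the highest were 0.58, 1.48 and 0.72.

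**Figure D4:**
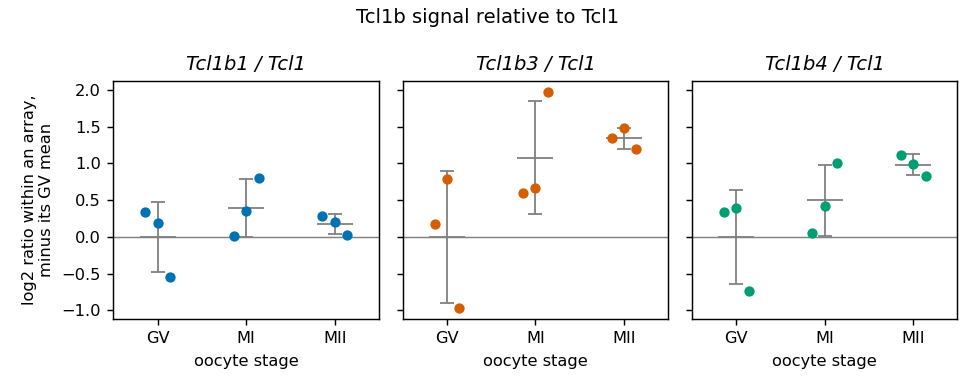
Log2 ratio of each Tcl1b signal to that of Tcl1 on the same array (y axis, minus the GV mean), by stage, with 1 point per array. The Tcl1b3 and Tcl1b4 points at MII lie above their GV points, and the Tcl1b1 points overlap.

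Profiles over the 9 arrays were compared by the root mean square difference of log2 values after each was centred on its own mean, over 9097 genes at or above the median signal. Within the family, Tcl1 and Tcl1b1 differed by 0.34, Tcl1b3 and Tcl1b4 also by 0.34, and Tcl1b1 and Tcl1b4 by 0.37. Tcl1b4 had rank 10 among 9096 genes in likeness to Tcl1b3, and Tcl1b3 had rank 38 in likeness to Tcl1b4. Tcl1b1 had rank 34 in likeness to Tcl1, and Tcl1 had rank 100 in likeness to Tcl1b1. For Tcl1b1 and Tcl1b4 the ranks were 164 (from Tcl1b1) and 56 (from Tcl1b4). The pair farthest apart was Tcl1 and Tcl1b3, at 0.81 (rank 2334 from Tcl1 and 663 from Tcl1b3). With predicted and unnamed genes skipped, the genes nearest to Tcl1 were Ccdc90b (0.18), the BRCA2 partner Palb2 (0.20) and the centrosomal protein gene Nin (0.23). Those nearest to Tcl1b1 were Ccdc47 (0.17), Fchsd2 (0.18) and the Polycomb gene Eed (0.18). Tcl1b3 lay nearest to Tardbp (0.18), which encodes the RNA-binding protein TDP-43, then Atad1 (0.29) and Mob4 (0.30). Tcl1b4 lay nearest to the Rac exchange factor gene Tiam2 (0.22), Carmil1 (0.22) and Tada2a (0.22). These arrays share stages and scaling, so the likeness is a description. The _x_at sets of Tcl1b1 and Tcl1b3 may also read RNA of other copies, so likeness within the family may not be that of separate genes.

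The kinase pathway that TCL1 proteins act on was compared next. Of 28 listed genes of the PI3K-Akt axis, 26 were measured, and from GV to MII 1 rose, 0 fell and 25 did not pass, with a median log2 change of 0.30 against -0.03 over all 18193 genes. Of all probe sets, 3.75% rose and 5.23% fell, and with 1 probe set per gene 1004 of 18193 genes rose and 1627 fell. The list's share of risen genes lies near this background. In each of the steps 0 of 26 passed. Members near background could hardly be called, such as Pik3r2, whose highest stage mean was 5.40.

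Akt1, a kinase bound by TCL1, gave 1535, 173 and 87.0 at GV, 343, 145 and 203 at MI, and 1572, 218 and 647 at MII. These values scattered as widely within stages as between them, and the log2 change from GV to MII was 1.01 (95% interval -1.45 to 3.47; limma adjusted p = 0.726). Akt2 gave 141, 69.9 and 301 at GV, 85.9, 327 and 60.5 at MI, and 402, 819 and 225 at MII, with a change of 1.43 (-0.26 to 3.12; limma adjusted p = 0.353). Neither interval excludes a change as large as that of Tcl1.

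Pik3r1, which encodes the p85-alpha regulatory subunit of PI3K, was the gene of this list that rose. It gave 537, 749 and 978 at GV, 1013, 1184 and 840 at MI, and 1834, 1516 and 1664 at MII, with the MII arrays above the GV arrays. Its log2 change was 1.17 ± 0.24 (SE; limma adjusted p = 0.0238). The call was lost without GV 1 (adjusted p = 0.0549), GV 2 (0.0685), MII 1 (0.0780), MII 2 (0.0519) or MII 3 (0.0718). It was also lost with a pseudocount of 1 (0.165) and with the stages fitted alone (0.0501). Without MI 3, 3 members of the list passed.

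Mtcp1, the relative of Tcl1 outside the cluster, encodes another Akt-binding protein of the same fold. It had 4 probe sets, of which 0 passed in any comparison. The brightest, 1449897_a_at, gave 545, 99.9 and 539 at GV, 430, 120 and 175 at MI, and 580, 372 and 192 at MII, with overlap between all stages. Its log2 change from GV to MII was 0.14 (95% interval -1.57 to 1.85; limma adjusted p = 0.961). The RefSeq table assigns the transcript of this probe set to Cmc4, which shares the Mtcp1 locus, so its gene is uncertain. Probe set 1455710_x_at changed by 0.51 (limma adjusted p = 0.712), and 2 others lay below 16 on all arrays.

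The genes that flank the cluster were also examined. Of the 5 nearest protein-coding genes on each side, all 10 were measured, and from GV to MII 0 rose and 1 fell, with a median log2 change of -0.11. Several lay near background, since the highest stage mean was 7.5 for D430019H16Rik, 17.6 for Bdkrb1, 20.65 for Bdkrb2 and 32.1 for Gsc. The count says little about such genes. Against 3.75% and 5.23% of all probe sets, or 1004 risen and 1627 fallen of 18193 genes with 1 probe set each, these counts over 10 genes are near the background. The gene that fell was Glrx5, which encodes a mitochondrial protein of iron-sulphur cluster assembly. It gave 6051, 3796 and 7114 at GV, 5272, 4461 and 1684 at MI, and 283, 187 and 155 at MII. The MII arrays were far below all others, and the log2 signal fell by 4.65 from GV (SE 0.47; limma adjusted p = 0.00181) and fell by 3.97 from MI (limma adjusted p = 0.00437). Atg2b, an autophagy gene, changed by 1.79 from GV to MII and did not pass (limma adjusted p = 0.0719). Dicer1, the endonuclease of small RNA processing, changed by -0.78 (limma adjusted p = 0.111).

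Other gene families with several copies in oocytes gave mixed counts from GV to MII, taken over every probe set as for the Tcl1 family. Of 6 Obox probe sets, which represent oocyte homeobox genes, 5 rose and 0 fell, with a median log2 change of 1.20, against 3.75% and 5.23% of all probe sets. Obox5 rose by 2.12 ± 0.24 (SE; limma adjusted p = 0.00239). Obox sets with the suffix _x_at share sequence between copies, and Obox3, which also passed, was close to background, at a mean of 4.77 at GV and 47.4 at MII. Of 3 Oosp probe sets, for oocyte-secreted proteins, 2 rose and 1 fell, beside the same background of 3.75% and 5.23%. Oosp1 rose by 1.11 and Oosp3 by 1.43 (limma adjusted p = 0.00737 and 0.00218). Oosp2 fell by 2.13 (limma adjusted p = 0.00868). Its change became 0.78 when arrays were centred on ribosomal protein genes, which moved the median of all probe sets by 2.92. The mean log2 signal of those genes was 10.60 to 10.97 at GV and 7.31 to 8.22 at MII. The centring subtracts this mean from every probe set of an array, so the turn in sign came from a shift common to all.

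Of 16 Nlrp probe sets, which include components of the subcortical maternal complex, 1 rose, 4 fell and 11 did not pass. Their median log2 change was -0.20, where 3.75% of all probe sets rose and 5.23% fell. Some that did not pass lay near background, with a highest stage mean of 3.26 for Nlrp10, 5.24 for Nlrp3, 8.93 for Nlrp12 and 20.65 for Nlrp6. The count and median say little about such genes. The probe sets of Nlrp9c disagreed, since 1439217_at fell by 0.92 (limma adjusted p = 0.0387) while 1439636_at changed by 1.27 and did not pass (limma adjusted p = 0.0596). Nlrp14 fell by 1.30 (limma adjusted p = 0.00476) and Nlrp5 by 1.23 (limma adjusted p = 0.0183), and both turned sign under that centring, to 1.61 and 1.69 respectively, though not relative to the shift. Nlrp4c rose by 1.08 (limma adjusted p = 0.0260). The Nlrp count that passed, 5, became 3 on leaving out GV 1, 2 for GV 2, 1 for GV 3, 3 for MII 1, 3 for MII 2 and 2 for MII 3. These counts rest on few probe sets, and the difference between families was not tested.

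**Figure D5:**
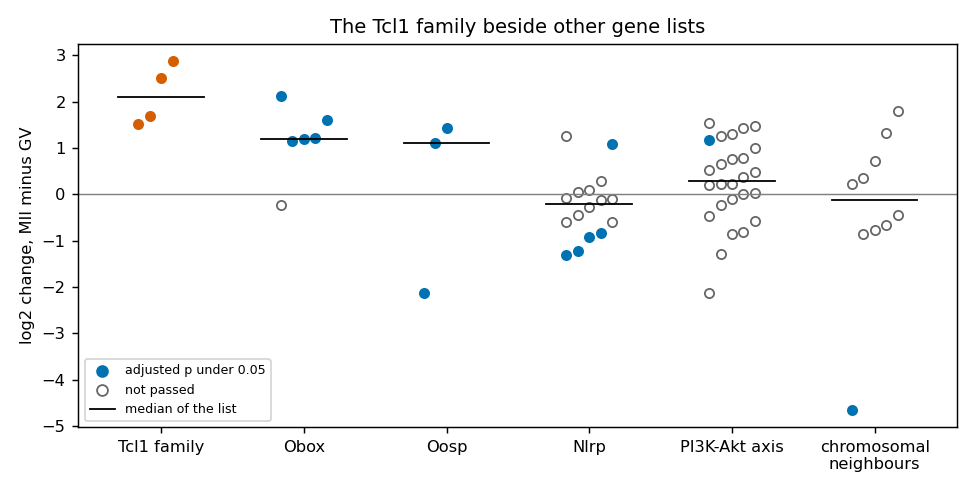
Log2 change from GV to MII (y axis) of each measured probe set of the Tcl1 family and of the other lists (x axis), 1 point per probe set or gene, coloured by whether it passed the limma threshold. The 4 Tcl1 family points lie between 1.52 and 2.87, and the PI3K-Akt points lie between -2.12 and 1.54, with 1 that passed.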

How the data were processed

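Polysome-bound mRNA of oocytes was measured on 9 arrays, 3 per stage. RNA was purified on columns, amplified with a whole-transcriptome system and labelled with biotin, per the labels' protocols. The authors deposited 1 table with a linear intensity for each probe set and array. How probes were summarised, corrected for background and scaled is not given in the sources used here. Amplification and any scaling limit what the values say of absolute amounts, and the table holds 0 other columns of per-sample values. Of 45101 probe sets, 64 controls were left out, and 34945 had 1 gene symbol, 932 several and 9160 none in the platform annotation.

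Stage means were fitted to log2(intensity + 16) of 45037 probe sets on all 9 arrays in limma 3.58.1 (lmFit, then eBayes; R 4.3.3). Tests were two-sided, with Benjamini-Hochberg adjustment over all probe sets and a threshold of 0.05. The pipeline was tested on simulated data. Listed genes were taken by their brightest probe set. Ratios were tested by exact permutation in Python with scipy 1.17.1, and promoters, credited to RefSeq, were aligned with Biopython 1.88. By plan the text names every family probe set, Mtcp1, the Akt genes, genes that passed in the Akt list and up to 4 neighbours. The 3 nearest profiles per member are also named, with predicted and unnamed genes skipped. The neighbours near background, Gsk3b, Pik3r2 and single Obox, Oosp and Nlrp genes were chosen after their values were seen. Alternatives were other scalings, pseudocounts of 1 and 64, a filter on the lowest 40%, 1 probe set per gene, stages fitted alone, a replicate block and each array left out. The members and lists were chosen with earlier results of these data known.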

Additional observations from a re-analysis of the deposited data

How the results depend on the processing

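The rise from GV to MII passed for Tcl1b1, Tcl1b3 and Tcl1b4 in 9 of 9 alternative settings other than ribosomal centring. It also passed for them in 9 of 9 fits without 1 array. With ribosomal centring they passed too, but so did most probe sets. The rise of Tcl1 kept its direction in all of these fits. It lost its call with a pseudocount of 1 (limma adjusted p = 0.0904) and in 3 of 9 fits without 1 array. Centring on ribosomal protein genes (46 genes) moved the median of all probe sets by 0.26, 2.67 and 2.92 from GV to MI, MI to MII and GV to MII. Relative to that shift, the GV to MII change was 1.52 for Tcl1, 1.69 for Tcl1b1, 2.86 for Tcl1b3 and 2.50 for Tcl1b4. The centring subtracts a single value per array from every probe set. These values thus restate the main changes relative to the median of all probe sets, and are no separate check. Of all probe sets, 707 rose and 1736 fell from MI to MII, against 1293 and 1661 after quantile normalization, 1243 and 1612 with a common 95th percentile, 222 and 1253 with a pseudocount of 1, and 40823 and 218 with ribosomal centring. From GV to MII, 1690 rose and 2354 fell, against 2337 and 2117 with a common 95th percentile and 41179 and 234 with ribosomal centring. Tcl1 passed from MI to MII after quantile normalization (limma adjusted p = 0.0255) and with a common 95th percentile (0.0239).

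The number of members that rose from MI to MII, 3, was 0 with a pseudocount of 1 and 1 to 4 without single arrays. The F test passed for 2 of 4 with a pseudocount of 1. For a larger second step 0 members passed, but 4 with ribosomal centring, as did 32094 of 45037 probe sets. For GV to MII, ribosomal centring gave 25 passing in the PI3K-Akt list (1 in the main setting), 4 for Mtcp1 (0), 10 neighbours (1) and 16 Nlrp (5). A pseudocount of 1 gave 0 in the PI3K-Akt list, 2 Obox (5), 1 Oosp (3) and 0 Nlrp. Without the lowest 40%, 2 passed in the PI3K-Akt list, 2 neighbours and 2 Nlrp. Stages fitted alone gave 0 and 2 for the PI3K-Akt and Nlrp lists, quantile normalization 2 for the PI3K-Akt list, and 1 probe set per gene 3 Obox. Without single arrays the PI3K-Akt count was 0 to 3 and the Nlrp count 1 to 5. The step difference of Tcl1b3 ranged from -0.23 to 0.57 without single arrays, with the sign turned without GV 1 (-0.06), GV 2 (-0.05), MI 1 (-0.19), MI 2 (-0.23) or MII 2 (-0.05), and the Tcl1b1 to Tcl1 ratio from GV to MII ranged from -0.10 to 0.35. With ribosomal centring the common shift took Oosp2 to 0.78, Nlrp5 to 1.69 and Nlrp14 to 1.61. Causes of other changes were not tested.

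Deviations of same-numbered arrays correlated at 0.00 to 0.21 over 9 pairs (mean 0.10). Differently numbered arrays of different stages correlated at -0.24 to 0.10 over 18 pairs (mean -0.05). The main fit did not use the replicate number, and whether it pairs the samples was not tested. With the replicate number as a block, 1 member, Tcl1b4, rose from MI to MII, as Tcl1b1 (limma adjusted p = 0.0844) and Tcl1b3 (0.0667) lost their calls, and 3 Nlrp probe sets passed. Pik3r1 lost its call from GV to MII under the block (0.0559), and Gsk3b was the list member that passed (0.0273). Low signals are limited by background, since more than 53% of values on each array were below 16.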
